A study of Ovis aries with 9 samples.

Results

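The genes described here are 8 genes that mark the choroid plexus: TTR, AQP1, CLIC6, SLC4A5, KL, OTX2, FOLR1 and PRLR. They were selected on the measured FPKM of TTR, which is high in a single puberty library, Puberty 3, and the levels of the genes in that library are therefore a description with no test. By the RefSeq symbol of their transcripts 6 of the 8 were found, out of 21284 genes with a coding transcript in the deposited table, and FOLR1 and PRLR were not analysed here. All 6 passed the filter on low values that kept 14238 genes (a stage mean of at least 0.5 FPKM, the number of sequenced fragments scaled by transcript length and by library size), but KL, CLIC6 and SLC4A5 passed it only through the puberty libraries.

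Hypothalamic tissue of 9 Dolang ewes was sequenced, with 3 animals each at prepuberty (120 days of age), puberty (130 days) and postpuberty (150 days). Each library came from the tissue of 1 animal, and no treatment or genetic change was part of the design. The study followed the hypothalamus through the onset of oestrus, and the question here was which choroid plexus genes share the high TTR level and what it does to the stage means.

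The choroid plexus is a folded epithelium that hangs into the brain ventricles and secretes the cerebrospinal fluid. Its cells pump ions and water from blood to ventricle and make large amounts of transthyretin, the protein encoded by TTR, which carries thyroid hormone and, with retinol-binding protein, retinol. The third ventricle borders the hypothalamus, and its roof carries choroid plexus.

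The Puberty 2 library stood apart from the others before any gene was compared. Its FPKM values summed to 599726, against 359588 to 398109 in the other 8 libraries, and 32 genes with at least 10 FPKM in each of the other 8 were listed at 0 in it, so that a 0 in Puberty 2 may be a missing estimate. Among hypothalamic markers, SIM1 and NKX2-1, transcription factors of hypothalamic neurons, reached at most 0.111 and 0.262 FPKM, and GHRH, the gene of growth hormone-releasing hormone, was listed at 0 in 8 of 9 libraries. Other genes of hypothalamic neurons were detected. TRH, POMC, AVP and OXT encode thyrotropin-releasing hormone, pro-opiomelanocortin, vasopressin and oxytocin. TRH reached 36.8 FPKM in Postpuberty 3 and OXT 4.81 in Postpuberty 2. POMC, which is also on the list of pituitary genes, reached 22.4 FPKM and AVP 10.4, both in Puberty 2. The 12 hypothalamic neuron genes on the list summed to 11.7 to 49.3 FPKM, with the highest sum in Puberty 2 and 47.3 in Postpuberty 3. The FPKM values do not carry the number of reads behind a gene's level, which is unknown here.

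TTR lies at chr23:25886082-25894587 (ARS-UI_Ramb_v3.0). Its level was 337, 9.07 and 32.5 FPKM in Prepuberty 1, 2 and 3, and 255, 554 and 7594 FPKM in Puberty 1, 2 and 3. It was 47.1, 36.9 and 723 FPKM in Postpuberty 1, 2 and 3. Puberty 3 stood 10.5 times above Postpuberty 3, the next highest, and 50.3 times above the median of the other 8 libraries. TTR alone made up 1.99% of all FPKM in Puberty 3, against 0.00252% to 0.189% elsewhere. Levels outside Puberty 3 also varied widely. Prepuberty 1, Puberty 1, Puberty 2 and Postpuberty 3 held over 200 FPKM, and the other 4 libraries, 2 of prepuberty and 2 of postpuberty, held under 50. Nearly all of the signal came from the transcript NM_001009800.1, with 7569 FPKM in Puberty 3, while XM_060405188.1 reached 25.1 FPKM there.

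AQP1, at chr4:66969825-66981186, encodes the aquaporin that lets water cross the epithelium's ventricular face. It was 0.912 FPKM in Prepuberty 1, listed at 0 in Prepuberty 2 and 0.125 in Prepuberty 3. In puberty it was 0.248 in Puberty 1, listed at 0 in Puberty 2 and 13.3 in Puberty 3, and at postpuberty it was 3.02, 0.0881 and 1.76 in the 3 libraries in turn. Puberty 3 was the highest library, 4.39 times above Postpuberty 1. The order below it differed from that of TTR, since Postpuberty 1 ranked next for AQP1 but was under 50 FPKM for TTR.

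CLIC6, at chr1:121386868-121446523, encodes a chloride channel protein of secretory epithelia. Its levels were 0.295, 0.499 and 0.0332 FPKM at prepuberty, 0.285, 0.746 and 6.24 FPKM at puberty, and 0.0478, 0.0174 and 0.675 FPKM at postpuberty. Puberty 3 stood 8.36 times above Puberty 2, the next highest, and 21.5 times above the median of the others. No other library reached 1 FPKM.

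SLC4A5, at chr3:96063701-96186894, encodes a sodium bicarbonate cotransporter of the ventricular membrane. It was 0.0674, 0.189 and 0.718 FPKM at prepuberty, 0.604, 0.104 and 1.63 FPKM at puberty, and 0.286, 0.227 and 0.160 FPKM at postpuberty. Puberty 3 was again highest, but only 2.26 times above Prepuberty 3, the smallest excess among the 5 genes that peaked there. SLC4A5 has 4 transcripts in the table, and the makeup differed between libraries. XM_042248107.1 and XM_042248108.1 gave 0.760 and 0.778 FPKM of the Puberty 3 level, and the latter was listed at 0 in the other 8 libraries. In Prepuberty 3 and Puberty 1, the next highest libraries, XM_042248105.1 and XM_042248106.2 held most of the sum, with 0.244 to 0.279 FPKM each.

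KL, at chr10:28353940-28393773, encodes klotho, a membrane protein that serves as co-receptor for the hormone FGF23 and is also shed into the fluid. It was 0.567 FPKM in Prepuberty 1 and listed at 0 in Prepuberty 2 and 3. In puberty it was 0.120 in Puberty 1, listed at 0 in Puberty 2 and 9.17 in Puberty 3. In postpuberty it was listed at 0 in Postpuberty 1, with 0.0397 and 1.27 FPKM in Postpuberty 2 and 3. Puberty 3 stood 7.22 times above Postpuberty 3, and the libraries next in rank, Postpuberty 3 and Prepuberty 1, were also the libraries that ranked high for TTR.

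OTX2, at chr7:67266178-67275883, encodes a homeodomain transcription factor of the developing forebrain that adult choroid plexus retains. It was listed at 0 in Prepuberty 1, and was 3.48 FPKM in Prepuberty 2 and 0.0615 in Prepuberty 3. At puberty it was 0.0107 in Puberty 1, listed at 0 in Puberty 2 and 3.11 in Puberty 3. At postpuberty it was 1.28, 2.38 and 0.340 FPKM. Its highest library was Prepuberty 2, which held the lowest TTR level of all 9, and Puberty 3 came second.

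**Figure D1:**
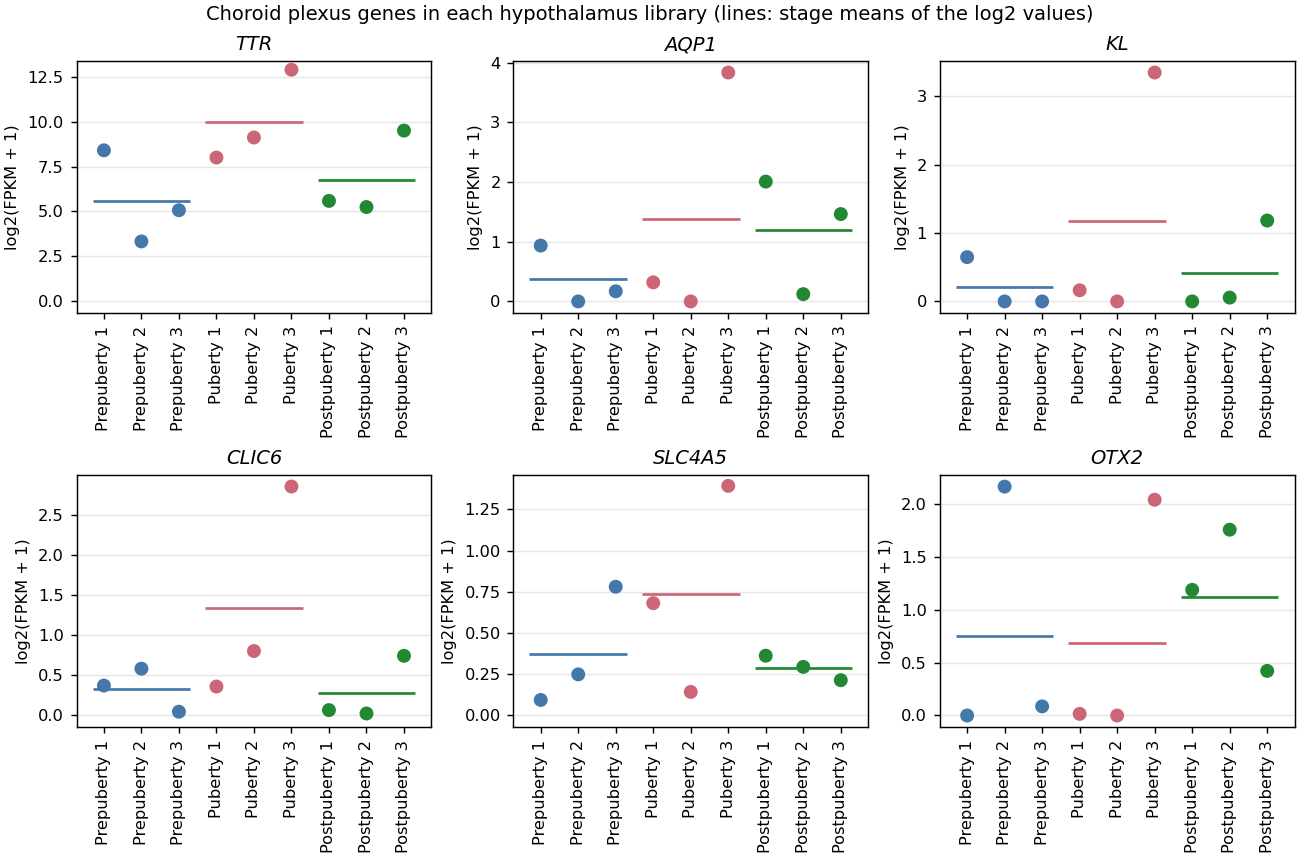
Level of the 6 choroid plexus genes in each of the 9 libraries, as log2(FPKM + 1) on the y axis, with a panel for each gene. Points are libraries, coloured by stage, and lines are the stage means of the log2 values. Puberty 3 is the highest point for TTR, AQP1, KL, CLIC6 and SLC4A5, and Prepuberty 2 is the highest for OTX2.

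Puberty 3 was the highest of the 9 libraries for 5 of the 6 genes, while 8.49% of all 14238 genes had their highest level there. It was at least 2 times above every other library, on FPKM + 1, for TTR, AQP1, KL and CLIC6, against 0.33% of all genes. Both counts are descriptions, because the genes were chosen for the pattern of TTR in this library. Without Puberty 2 the counts were again 5 and 4 of 6.

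Set against its own level in Puberty 3, each gene showed how far the other libraries lay below. For TTR they lay at 0.119% to 9.52% of Puberty 3, with Postpuberty 3 at 9.52%, Puberty 2 at 7.30%, Prepuberty 1 at 4.44% and Puberty 1 at 3.36%. CLIC6 gave 10.8%, 11.96%, 4.73% and 4.56% in these same 4 libraries. CLIC6 thus spanned 4.56% to 11.96% in the libraries where TTR spanned 3.36% to 9.52%, and the percentages of both were under 1% in Prepuberty 3, Postpuberty 1 and Postpuberty 2. The exception was Prepuberty 2, where CLIC6 was at 8.001% and TTR at 0.119%.

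KL was at 13.8% in Postpuberty 3, 6.18% in Prepuberty 1 and 1.30% in Puberty 1, and was listed at 0 in Puberty 2. AQP1 was at 13.3% in Postpuberty 3, 6.88% in Prepuberty 1 and 1.87% in Puberty 1, was listed at 0 in Puberty 2, and was at 22.8% in Postpuberty 1, where TTR was at 0.620%. Postpuberty 3 and Prepuberty 1 therefore held smaller amounts of TTR, CLIC6, KL and AQP1 together, while Puberty 2 held TTR and CLIC6 without listed AQP1 or KL. SLC4A5 did not follow this order, with 44.2% in Prepuberty 3 and 37.1% in Puberty 1 but 9.83% in Postpuberty 3.

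**Figure D2:**
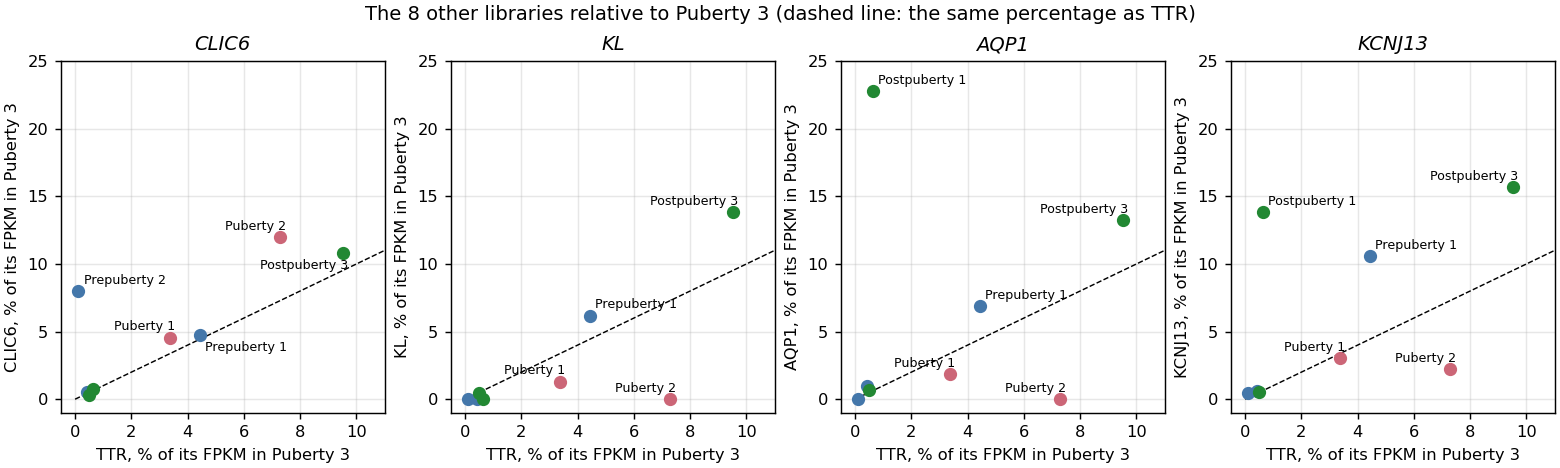
Level of CLIC6, KL, AQP1 and the potassium channel gene KCNJ13 in the 8 other libraries as a percentage of the same gene's FPKM in Puberty 3 (y axis), against TTR on the same scale (x axis). Points are libraries coloured by stage, and the dashed line marks equal percentages. Postpuberty 3 and Prepuberty 1 lie above the line in each panel, and Puberty 2 lies at 0 for KL and AQP1.

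Across the 8 libraries other than Puberty 3, the level of TTR was compared with that of each of the other 5 genes on log2(FPKM + 1), with two-sided exact permutation tests adjusted over the 5 pairs by Benjamini and Hochberg. Without Puberty 3, KL and SLC4A5 did not pass the filter, CLIC6 passed it only through puberty and AQP1 only through postpuberty, so that these 4 are given as a description with no p. CLIC6 gave r = 0.55 and rho = 0.60, and AQP1 gave r = 0.25 and rho = 0.38. For OTX2 the correlation was negative, with r = -0.76 (exact p = 0.0368, adjusted p = 0.184) and rho = -0.63 (exact p = 0.101, adjusted p = 0.189). This relation did not pass the adjusted threshold of 0.05. KL, listed at 0 in 4 of the 8 libraries, gave r = 0.64 and rho = 0.61, and SLC4A5 gave r = -0.30 and rho = -0.57.

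These values depended on the libraries included. Without Prepuberty 2 and Postpuberty 3, the 2 libraries farthest from the median of TTR, r over the remaining 6 was 0.93 for CLIC6, 0.46 for KL, -0.20 for AQP1, -0.67 for OTX2 and -0.47 for SLC4A5. Without Puberty 2 as well as Puberty 3, r over 7 libraries was 0.84 for KL, listed at 0 in 3 of them, 0.42 for CLIC6 and 0.46 for AQP1. It was -0.19 for SLC4A5 and -0.73 for OTX2 (exact permutation p = 0.0744, adjusted p = 0.186). The sign for AQP1 thus changed with the libraries left out, and r for CLIC6 and KL ranged from 0.42 to 0.93 and from 0.46 to 0.84 over these sets.

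The stage means followed Puberty 3. Mean TTR was 126 ± 183 FPKM at prepuberty, 2801 ± 4153.5 FPKM at puberty and 269 ± 393 FPKM at postpuberty (SD, n = 3 each), so the puberty SD was larger than the puberty mean. Puberty 3 held 90.4% of the puberty sum and 79.2% of the TTR FPKM of all 9 libraries. The puberty mean was 22.2 times the prepuberty mean and 10.4 times the postpuberty mean with Puberty 3, and the mean of the 2 libraries left without it, 405 FPKM, was 3.20 and 1.504 times those means. The stage medians were 32.5, 554 and 47.1 FPKM.

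CLIC6 averaged 0.276 ± 0.234, 2.42 ± 3.31 and 0.247 ± 0.371 FPKM at the 3 stages in turn (SD, n = 3 each). Its ratio of puberty to prepuberty was 8.78 with Puberty 3 and 1.87 without it, and its ratio to postpuberty was 9.82 and 2.09. For SLC4A5 the ratio to prepuberty was 2.40 with Puberty 3 and 1.09 without it. CLIC6 and SLC4A5, like TTR, therefore kept a puberty mean above both other stages without Puberty 3, by a smaller factor. For TTR this rests on Puberty 2, the library that stood apart, since Puberty 1 alone held 255 FPKM, below the postpuberty mean. For CLIC6 most of the excess came from Puberty 2, since Puberty 1 held 0.285 FPKM, only just above the prepuberty mean of 0.276. For SLC4A5 it rests on Puberty 1, at 0.604 FPKM. Puberty 2 held 0.104 FPKM of SLC4A5, below the means of both other stages, 0.325 and 0.224.

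AQP1 and KL did not. The mean of the listed AQP1 values was 0.346, 4.50 and 1.62 FPKM at prepuberty, puberty and postpuberty, and Puberty 3 held 98.2% of the puberty sum. Without it the puberty mean was 0.124 FPKM, which turned the ratio to prepuberty from 13.0 to 0.358 and that to postpuberty from 2.78 to 0.0764. KL averaged 0.189, 3.10 and 0.437 FPKM, with 98.7% of the puberty sum in Puberty 3, and its ratios went from 16.4 to 0.316 and from 7.10 to 0.137. Of the 2 puberty libraries left, Puberty 2 was listed at 0 for both genes, so that these lower means rest on 0.248 FPKM of AQP1 and 0.120 FPKM of KL in Puberty 1. OTX2 averaged 1.18, 1.04 and 1.33 FPKM, and without Puberty 3 the puberty libraries held 0.0107 FPKM and a listed 0.

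**Figure D3:**
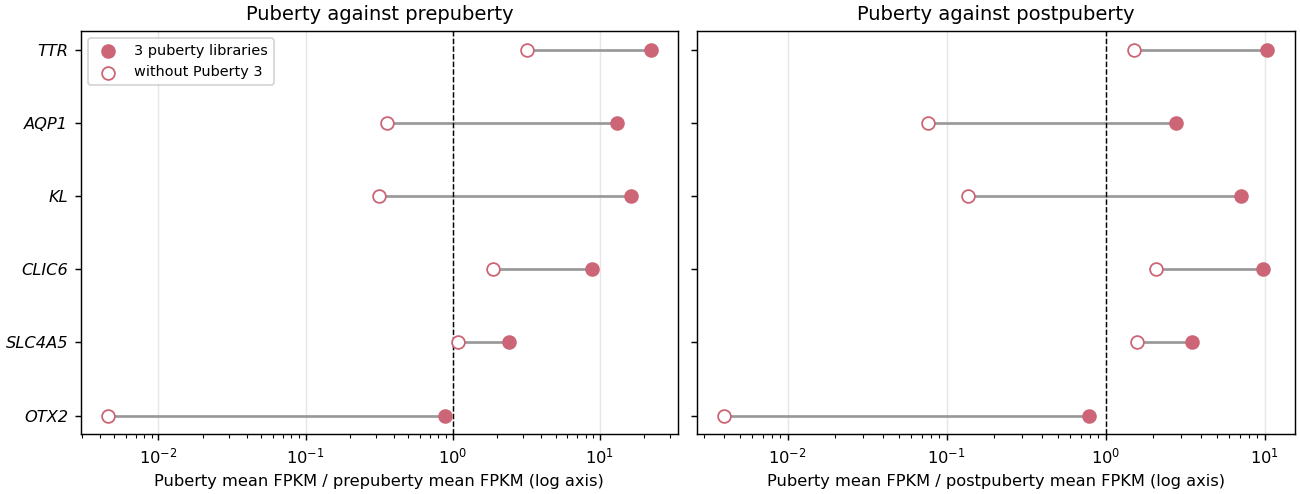
Ratio of the puberty mean FPKM to the prepuberty mean (left) and to the postpuberty mean (right) for the 6 choroid plexus genes, on a log axis. Filled points use the 3 puberty libraries, open points leave out Puberty 3, and the dashed line marks equal means. Without Puberty 3 the ratio to prepuberty fell from 22.2 to 3.20 for TTR and crossed 1 for AQP1 and KL, and for OTX2 the open points rest on a single library at 0.0107 FPKM.

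Differences between stages were tested with limma on log2(FPKM + 1), a scale that understates the change of low genes, and the call needed a log2 fold change of 1 or more in either direction and, over all genes, a Benjamini-Hochberg adjusted p below 0.05. KL, CLIC6 and SLC4A5, which passed the filter only through puberty, are given without a p, and so is AQP1, which did not reach the filter at prepuberty. Postpuberty against prepuberty, whose fold changes do not use Puberty 3 although it enters the shared estimate of spread and the filter, called neither TTR nor OTX2, and 0% of the 14238 genes tested. At an unadjusted p below 0.05 the same limma comparison had neither gene and 116 of all genes. The log2 fold change of TTR was 1.18 (SE 1.67), that of AQP1 0.83 (SE 0.93), that of OTX2 0.37 (SE 0.72) and that of KL 0.20 (SE 0.79). CLIC6 and SLC4A5 stood at -0.06 (SE 0.57) and -0.08 (SE 0.32). The limma adjusted p was 1 for TTR and OTX2, and each of the 6 differences was smaller than its standard error in this fit. Without Puberty 3 the SE was smaller, with 0.48 for AQP1, whose difference of 0.83 then exceeded it, and 1.45 for TTR, and limma called neither TTR nor OTX2, with neither of them and 113 of all genes at an unadjusted p below 0.05. Without Postpuberty 3 the TTR value was -0.18 and the KL value -0.19, so that the sign of both rests on that library.

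With Puberty 3 in the fit, the log2 fold change from prepuberty to puberty was 4.40 (SE 1.67) for TTR, 1.02 for AQP1, 1.01 for CLIC6, 0.95 for KL, 0.36 for SLC4A5 and -0.06 for OTX2, given as a description. From puberty to postpuberty the values were -3.23 (SE 1.67) for TTR, -1.06 for CLIC6, -0.76 for KL, -0.45 for SLC4A5, -0.19 for AQP1 and 0.44 for OTX2. The sign for AQP1 was not stable, with 0.41 at a pseudocount of 0.1 and 0.35 without Postpuberty 2, nor was that of OTX2 from prepuberty to puberty, which ranged from -0.74 to 0.64 when single libraries were left out. TTR from prepuberty to puberty then ranged from 2.96 to 5.80, and was 2.40 without Puberty 2 and 3. At a pseudocount of 0.1, CLIC6, KL and SLC4A5 stood at 2.01, 1.64 and 0.88 from prepuberty to puberty. From puberty to postpuberty they stood at -2.42, -1.14 and -0.97 with that pseudocount. Each of these comparisons called 0% of all 14238 genes, with 259 and 305 at an unadjusted limma p below 0.05.

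The test on libraries that did not choose the genes left out Puberty 3. TTR, CLIC6, AQP1 and OTX2 were then among the 14208 genes that passed the filter, and KL and SLC4A5 were not. CLIC6 passed only through the puberty mean of 0.516 FPKM, so its differences, 0.25 from prepuberty to puberty (SE 0.30) and -0.30 from puberty to postpuberty, are given without a p. AQP1 passed only through the postpuberty mean of 1.62 FPKM, and its differences were -0.21 (SE 0.53) and 1.04 (SE 0.53). limma called neither TTR nor OTX2, and 0% of all genes in each comparison. At an unadjusted p below 0.05 there was neither gene, and 625 of all genes between prepuberty and puberty and 836 between puberty and postpuberty. From prepuberty to puberty the log2 fold change of TTR was 2.96 (SE 1.62, limma adjusted p = 0.581), while OTX2 stood at -0.74 (SE 0.66, limma adjusted p = 0.600). From puberty to postpuberty TTR gave -1.78 (limma adjusted p = 0.566) and OTX2 1.11 (limma adjusted p = 0.516).

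A longer list of 50 choroid plexus genes, of which 49 were in the table, was set beside the 6. Of the 40 that passed the filter, 19 (47.5%) were highest in Puberty 3 and 10 were at least 2 times above every other library on FPKM + 1, against 8.49% and 0.33% of all genes. TRPV4, CA12 and LMX1A passed only through Puberty 3. Of the 37 that passed the filter without it, 16 were highest in Puberty 3 and 8 were at least 2 times above the others, against 8.01% and 0.218% of all genes. Without Puberty 2 the counts over the 40 were 22 and 10, against 10.8% and 0.372% of all genes. These counts are descriptions. The median difference between Puberty 3 and the median of the other libraries was 0.96 on the log2(FPKM + 1) scale over the 40 genes, against 0.08 over all genes. Without Puberty 3, limma called 0 of the 37 and 0% of all 14208 genes in each of the 3 stage comparisons. At an unadjusted limma p below 0.05 there were 0 of the 37 and 625 of all genes from prepuberty to puberty. The counts were 2 and 836 from puberty to postpuberty, and 1 and 113 from prepuberty to postpuberty.

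Genes of ion transport and barrier were among the highest of these. KCNJ13, an inward rectifier potassium channel of the choroid plexus membrane, was 29.8 FPKM in Puberty 3 and 0.144 to 4.67 elsewhere. SLC13A4, a sodium sulphate cotransporter, was 46.8 against at most 27.6 FPKM, and SLC4A2, a chloride bicarbonate exchanger, was 32.5 against at most 13.4. Both genes were thus expressed in every library, with an excess in Puberty 3. TRPV4, a cation channel that responds to osmolarity, was 4.99 against at most 0.916 FPKM, and CLDN1, a tight junction claudin, was 5.03 against at most 1.88. The next highest library for KCNJ13, TRPV4 and CLDN1 was Postpuberty 3, as for TTR and KL.

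Secreted and developmental genes of the list showed a range. IGF2, a growth factor made by choroid plexus and meninges, was 24.2 FPKM in Puberty 3, with 16.6 in Postpuberty 1 and 15.5 in Prepuberty 1. PLTP, a phospholipid transfer protein, was 101 against at most 71.5 FPKM, and ENPP2, which makes lysophosphatidic acid and is also made by oligodendrocytes, was 150 against at most 144. MSX1 and LMX1A, homeobox factors of the dorsal midline, were 8.99 against at most 3.18 and 1.54 against at most 0.359 FPKM. ENPP2 and PLTP, which were expressed in every library, thus had a smaller excess than MSX1 and LMX1A. Further genes of the list were highest in another library. WFDC2 was 2.66 FPKM in Puberty 3 and 12.7 in Puberty 2, and SOSTDC1 was 0.684 in Puberty 3 and 3.53 in Prepuberty 2. F5 was 0.701 in Puberty 3 and 1.37 in Prepuberty 1, and OTX1 was 0.0690 in Puberty 3 and 3.48 in Postpuberty 2.

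Other genes known from the choroid plexus stayed near 0 in every library. KCNE2, a potassium channel subunit, SLC16A8, a lactate transporter, and LEPR, the leptin receptor, were listed at 0 in Puberty 3. Elsewhere they reached at most 0.0769, 0.122 and 0.0170 FPKM. HTR2C, the serotonin receptor of the choroid plexus, was 0.0116 FPKM in Puberty 3 and at most 0.0590 elsewhere. LRP2 and CLDN2 were low but highest in Puberty 3. Their levels were 0.0995 FPKM against at most 0.0279, and 0.176 against at most 0.117. Of the list, 9 genes did not pass the filter, and 21 of the 40 that did were highest in another library. SLC12A2, the sodium potassium chloride cotransporter, was 32.5 FPKM in Puberty 3 and 13.3 to 32.8 elsewhere.

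**Figure D4:**
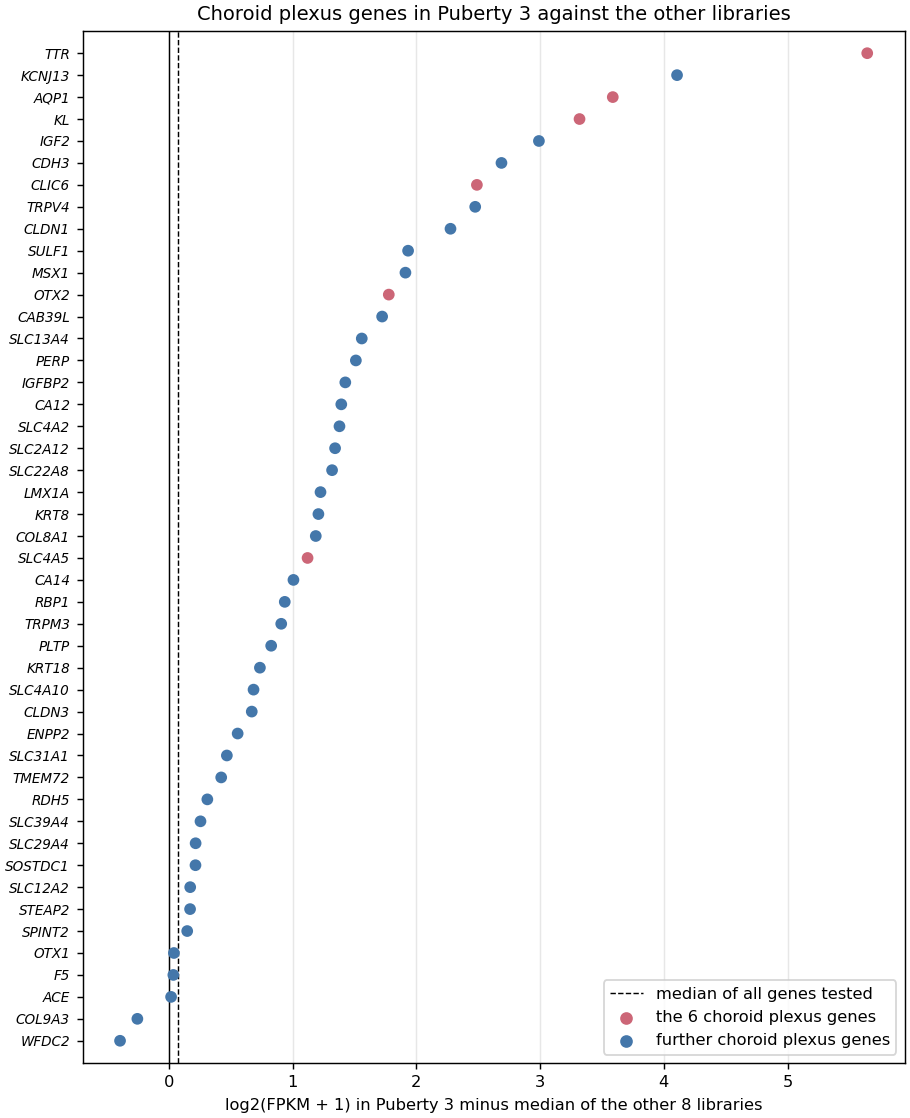
Difference in log2(FPKM + 1) between Puberty 3 and the median of the other 8 libraries (x axis) for the 6 choroid plexus genes and the 40 further choroid plexus genes that passed the filter, 1 gene per line. The solid line marks no difference and the dashed line the median of all 14238 genes, 0.08. TTR lies farthest to the right at 5.64, followed by KCNJ13, AQP1 and KL.

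The partner genes of the 6 were given by lists. Of 23 genes of ion and water transport, 20 passed the filter and 10 (50%) were highest in Puberty 3, against 8.49% of all genes. The 3 that are among the 6 genes, AQP1, CLIC6 and SLC4A5, belong to those 10. KCNJ13, TRPV4, SLC4A2, CA12 and CA14 of the 10 are also on the longer list, so the share is not a separate result. CLIC6, SLC4A5, TRPV4 and CA12 passed the filter only through puberty. Of the carriers of folate and thyroid hormone 9 passed and 3, with TTR among them, were highest in Puberty 3, against the same 8.49%. RBP4, the retinol-binding protein that pairs with transthyretin, was 42.2 FPKM in Puberty 3 and 30.9 to 52.4 elsewhere, so it did not share the rise of TTR. Of the genes of prolactin and klotho signalling 10 passed and 1, KL, was highest there, a share near the 8.49% of all genes. FGFR1, a receptor that binds klotho, was 13.6 FPKM in Puberty 3 and 21.8 in Postpuberty 1. Without Puberty 3, whose TTR level chose the genes, limma called 0 genes of these lists in each of the 3 stage comparisons. At an unadjusted limma p below 0.05 there were then 0 or 1 per list. Of all 14208 genes there were 625 from prepuberty to puberty, 836 from puberty to postpuberty and 113 from prepuberty to postpuberty. These counts are a description, because the lists hold genes of the 6.

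Markers of neighbouring tissue moved with the choroid plexus genes in part. Of 15 ependymal genes that passed, 10 were highest in Puberty 3 and 0 were 2 times above every other library, and the summed level of the list was 239 FPKM there, with 98.1 to 242 at prepuberty, 167 to 519 at puberty and 137 to 176 at postpuberty. CFAP43, DNAH5, RSPH4A and HYDIN, all among these 10, passed the filter only through Puberty 3, and 11 ependymal genes passed it without that library. The count is therefore a description. FOXJ1, the regulator of motile cilia, was 11.8 FPKM in Puberty 3 and 9.90 in Prepuberty 1. Of 13 genes of meninges and fibroblasts 1 was highest in Puberty 3 and 7 were at least 2 times above the median of the others, against 8.49% and 2.56% of all genes, with a sum of 239 FPKM in Puberty 3, 251 in Prepuberty 1, 334 in Postpuberty 1, 130 in Postpuberty 3 and 51.8 to 62.6 in the other 5. Pituitary genes summed to 94.8 FPKM in Puberty 3 and 221 in Postpuberty 1, with 3.86 to 32.8 at prepuberty, 3.92 to 94.8 at puberty and 18.2 to 221 at postpuberty. PRL, the prolactin gene, gave most of this sum, with 77.8 FPKM in Puberty 3 and 199.5 in Postpuberty 1.

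The part of these neighbouring tissues in the levels of the 6 genes was not tested. Endothelial genes summed to 208 FPKM in Puberty 3 and 142 to 721 elsewhere, and genes of every cell to 3320 and 2864 to 4817, so both lists lay within the range of the other libraries. In bulk tissue, fewer or more cells of a type and less or more RNA per cell cannot be told apart. Genes of pineal gland, retina and pigment epithelium, tissues that also express TTR or OTX2, summed to 7.10 FPKM in Puberty 3 and 4.58 to 10.4 elsewhere.

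**Figure D5:**
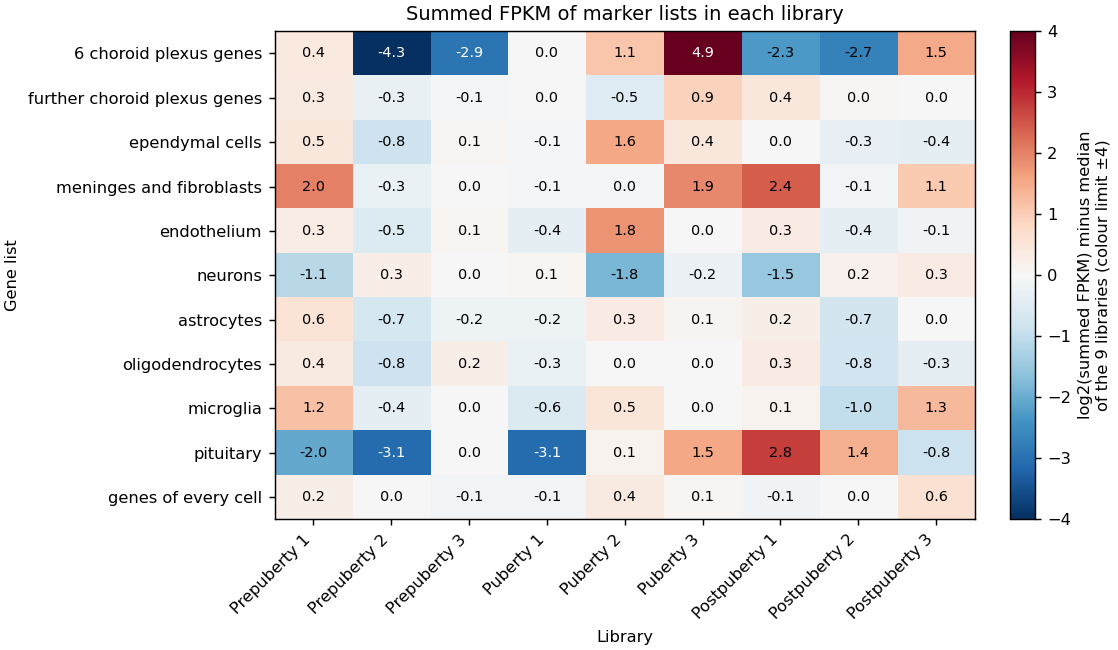
Summed FPKM of marker lists (rows) in the 9 libraries (columns), as log2 of the sum minus the median over libraries, with each value printed in its cell. The sum of the 6 genes, which is nearly all TTR, stands 4.9 above its median in Puberty 3, the further choroid plexus genes 0.9, the meningeal genes 1.9 and the genes of every cell 0.1.

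The genes whose pattern over the 9 libraries was most like that of TTR were sought among genes with a mean of at least 1 FPKM, by Pearson r on log2(FPKM + 1). The 10 closest were C1H21orf62 (r = 0.96), LOC101106541 (0.96), ILVBL (0.95), C3H22orf23 (0.93), TMC6 (0.92), TEKT1 (0.90), CFAP161 (0.90), LOC105609801 (0.89), CFAP45 (0.89) and TRH (0.89). TEKT1, CFAP161 and CFAP45 encode proteins of motile cilia, and TRH encodes thyrotropin-releasing hormone. None of the 10 is on the choroid plexus lists, and they were not tested, since they were picked from these same values by r with TTR. C1H21orf62 ranged from 0.999 to 3.48 FPKM and CFAP45 from 0.222 to 9.32, a smaller span than that of TTR. TRH was highest in Postpuberty 3, at 36.8 FPKM against 20.7 in Puberty 3, and the other 9 were highest in Puberty 3. LOC101106541 combined a high r with a large excess, at 24.96 FPKM in Puberty 3 and 0.249 to 5.72 elsewhere.

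A different set led by excess in Puberty 3 over the highest other library. The 15 genes with the largest ratio of FPKM + 1 held TTR, KL, CLIC6 and AQP1 of the 6 genes, KCNJ13 and CDH3 of the longer list, and 9 others. WFIKKN2, a secreted protein with protease inhibitor domains, was 23.5 FPKM in Puberty 3 and at most 2.10 elsewhere. ECRG4, a secreted peptide precursor, was 34.4 against at most 7.18, and MFRP, a frizzled-related membrane protein, 8.71 against at most 0.674. LOC105605916 and LOC101106541 also belonged to the 9. The other 4 were INSL3, GSTA1, HSD3B1 and CYP11A1, genes known for high expression in steroid-producing tissue. Like KL, these 4, MFRP and LOC105605916 passed the filter only through Puberty 3, so their rank is a description. INSL3 was 9.65 FPKM in Puberty 3 and at most 0.111 elsewhere, and CYP11A1 was 4.08 against at most 0.0633.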

How the data were processed

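Hypothalamus RNA of 9 ewes was sequenced, 3 per stage. The authors trimmed reads with Trimmomatic (version 0.32 in the submitters' processing notes), used HISAT2 for alignment to ARS-UI_Ramb_v3.0, and built transcripts with StringTie. The deposited values are FPKM per transcript, as StringTie gives them. No counts were used, and depth in reads cannot be read from FPKM, so that precision rests on the spread between animals.

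FPKM was summed per gene over RefSeq coding transcripts (NM and XM, 76682 of 76684 matched to a symbol of the same build). The 22600 assembled transcripts that carry an assembly name (MSTRG), 12.4 to 17.4% of FPKM, were left out. Whether any of them belong to the genes described here was not checked, so the sums per gene may be incomplete. Genes with a stage mean of at least 0.5 FPKM (14238) were fitted with limma 3.58.1 (R 4.3.3) on log2(FPKM + 1), all 9 libraries in 1 fit with a variance trend. No scaling was applied beyond FPKM. The fit was tested on simulated data. Python 3.11.15 and scipy 1.17.1 gave the permutation tests. The study's own counts-based tests were not used.

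The genes and lists were chosen with earlier results of these data known. Besides the 6 genes, the text names list members by level, the 10 genes most correlated with TTR and the 15 with the largest ratio of FPKM + 1 in Puberty 3 to the highest other library. List members named for low levels or for their Puberty 3 excess were chosen after their values were seen. Replicate numbers belong to different animals and do not pair the stages. Alternatives covered the pseudocount, filter, scaling, variance model, transcript choice, a replicate block, leaving out libraries and, added after seeing the data, counts without Puberty 2 and with a filter that leaves out Puberty 3.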

Additional observations from a re-analysis of the deposited data

How the results depend on the processing

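Between prepuberty and postpuberty, limma called neither TTR nor OTX2 under any of the 21 alternatives. The count over those of the 6 genes that passed the filter was 0 in each of the 3 stage comparisons. That count is a description, because Puberty 3 chose the genes, and KL, CLIC6, SLC4A5 and AQP1 are given without a p. With the replicate block the count was also 0, and 281, 327 and 103 of all genes had an unadjusted limma p below 0.05. The replicate numbers do not pair animals: of 9 same-numbered pairs, 2 had correlated deviations over 0.1 (r from -0.31 to 0.51). Scaling to equal totals moved the median change of all genes from -0.14 to -0.28 between prepuberty and puberty and from 0.19 to 0.30 between puberty and postpuberty, and reversed none of the 6 genes. Between prepuberty and postpuberty, leaving out 1 library gave TTR -0.18 to 2.58, KL -0.19 to 0.41, CLIC6 -0.29 to 0.07, SLC4A5 -0.22 to 0.12, OTX2 -0.0029 to 1.08 and AQP1 0.42 to 1.37. Reversals came without Postpuberty 3 for TTR (-0.18) and KL (-0.19), without Prepuberty 2, Postpuberty 1 or Postpuberty 2 for CLIC6 (0.069, 0.050 and 0.071), without Prepuberty 1 for OTX2 (-0.0029) and without Prepuberty 3 for SLC4A5 (0.12). The cause was not tested. In the comparisons with puberty, the sign also changed for AQP1 from puberty to postpuberty. It was 0.41 at a pseudocount of 0.1, 0.35 without Postpuberty 2, 1.04 without Puberty 3 and 0.88 without Puberty 2 and 3. From prepuberty to puberty AQP1 turned to -0.21 without Puberty 3 and -0.05 without Puberty 2 and 3. OTX2 from prepuberty to puberty turned to 0.64, 0.27 and 0.28 without Prepuberty 2, Puberty 1 and Puberty 2. Without Puberty 3 and without a filter, an alternative added after seeing the data, KL stood at -0.13 (SE 0.41) and SLC4A5 at 0.04 (SE 0.24) between prepuberty and puberty. KL from puberty to postpuberty turned there from -0.76 to 0.33 (SE 0.41). The correlation with TTR rose to 0.84 for KL, which is below the filter there, without Puberty 2 and 3, to 0.93 for CLIC6 and turned to -0.20 for AQP1 without the 2 libraries farthest from the median of TTR, and the cause was not tested. Filtering at 1 FPKM or using the most abundant transcript each left out genes of the 6, for which no value could be given. Without Puberty 2 and 3, limma called 1 of all genes between puberty and postpuberty, a fit in which Puberty 1 is the only puberty library and is assumed to vary like the other stages.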

Other observations

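Genes of steroid hormone synthesis and gonads were looked at after INSL3, GSTA1, HSD3B1 and CYP11A1 were seen among the 15 genes with the largest excess in Puberty 3. Those 4 prompted the list, so no count over it is given. STAR, which brings cholesterol into mitochondria, was 4.71 FPKM in Puberty 3 and 0.312 to 1.63 elsewhere. HSD3B1, which makes progesterone from pregnenolone, was 6.31 against at most 0.320, and GSTA1 was 6.70 against at most 0.344. CYP17A1, LHCGR and NR5A1, further genes of steroid-producing gonadal cells, did not pass the filter. They were at 0.244, 0.352 and 0.0709 FPKM in Puberty 3, against at most 0.181, 0.102 and 0.0423 elsewhere. FSHR was at 0.121 FPKM against at most 0.0116, while AMH and CYP11B1 were highest in another library. INHA, an inhibin subunit, was 2.64 FPKM in Puberty 3 and 1.92 to 7.25 elsewhere.

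Transcription factor genes of forebrain and midbrain regions were also set beside OTX2 after its levels were seen. LHX2 was 4.31 FPKM in Prepuberty 2, 1.53 in Postpuberty 2 and at most 0.389 in the other 7. LHX9 was 3.07 FPKM in Prepuberty 2 and 1.85 in Postpuberty 2, against 0.418 in Puberty 3. OTX1 was 3.48 FPKM in Postpuberty 2, 1.62 in Postpuberty 1 and 0.424 in Prepuberty 2. OTX2 was above 1 FPKM in these libraries and in Puberty 3. EN2, a midbrain and cerebellar factor, was 2.96 FPKM in Puberty 3, 3.30 in Prepuberty 2, 9.18 in Postpuberty 1 and 0.0318 in Postpuberty 2.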
